A study of Mus musculus with 6 samples.

Results

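Complement components and their receptors were examined in cultured mouse microglia with and without the adaptor Dap12. The set held 9 genes: C1qa, C1qb and C1qc (the chains of C1q), C3, C4b, Cfb, Cfp, C3ar1 and C5ar1. Members were all probe sets that the platform annotation gives to exactly 1 of these symbols, which yielded 13 of the 45101 probe sets on the array, for 7 of the 9 genes (of 18193 genes with such a probe set on the array). C3 and C4b had no probe set under a single symbol here, and their signals were not analysed here. Of the 6 arrays, 3 carried RNA of Dap12-deficient primary microglia (labelled Dap12-ko) and 3 carried RNA of wild-type primary microglia, and the labels give no treatment, strain, age or sex. Since the labels leave the animals behind the cultures unstated, the spread that the p-values rest on may be technical.

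Complement is a cascade of secreted proteins that tags surfaces for removal. C1q recognises its targets and starts the classical pathway through C4b and C3, while factor B (Cfb) and properdin (Cfp) build and stabilise the C3 convertase of the alternative pathway. The fragments C3a and C5a released on the way signal through the receptors C3ar1 and C5ar1 on myeloid cells. In the brain microglia are the main source of C1q, and C1q and C3 are known for marking synapses that microglia remove. Dap12, encoded by Tyrobp, is a membrane adaptor whose ITAM recruits the kinase Syk once partner receptors, Trem2 among them, are engaged.

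The deposited values were scaled linear signals, with array medians of 14.6 to 16.5 in Dap12-deficient and 11.9 to 14.0 in wild-type cultures. Tyrobp, the targeted gene, gave signals of 125, 96.4 and 96.2 on the Dap12-deficient arrays, against 5584, 7271 and 5396 on the wild-type arrays, which fits the labels on all 6 arrays. Which exons the allele lacks and where the probes lie was not analysed here. Of 12 microglia markers, 11 had a probe set, and their summed signal was 13307 to 19020 in Dap12-deficient and 15980 to 22505 in wild-type cultures. The dimmest of the 11, Siglech, gave signals from 15.7 to 38.3, not far above the array medians. Markers of other brain cells were present too. The summed signal of 9 oligodendrocyte markers was 1490 to 6832 in Dap12-deficient and 5579 to 9011 in wild-type cultures. That of 12 astrocyte markers was 2519 to 3398 in Dap12-deficient and 2070 to 3265 in wild-type cultures. Glul alone, at 1448 to 2233, made up most of each astrocyte sum. For 6 oligodendrocyte precursor markers the sum was 2215 to 2400 in Dap12-deficient and 2278 to 2532 in wild-type cultures. Olig1 alone, at 1247 to 1532, made up most of each of these sums. Of the 6 precursor markers, 2 had higher and 4 lower means in Dap12-deficient cultures, and 0 passed. Cspg4, among the lower, gave 45.8, 55.4 and 43.3 in Dap12-deficient cultures, against 174, 165 and 162 in wild-type cultures.

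The C1q genes lie next to each other, and their upstream sequences are shown because the signals of the chains moved together from array to array. In the RefSeq gene table of GRCm38.p6, C1qa, C1qb and C1qc occupy 3 consecutive places among the protein-coding genes of chromosome 4. RefSeq promoter entries of that build were at hand for 6 of the 9 genes, among them C1qb and C1qc. The 250 bases before the start of each are printed 5′ to 3′ on the minus strand, C1qb from chr4:136886201-136886450 and C1qc from chr4:136892915-136893164. Capitals mark the core motif of PU.1, the myeloid transcription factor Spi1, searched as GAGGAA on both strands.
C1qb: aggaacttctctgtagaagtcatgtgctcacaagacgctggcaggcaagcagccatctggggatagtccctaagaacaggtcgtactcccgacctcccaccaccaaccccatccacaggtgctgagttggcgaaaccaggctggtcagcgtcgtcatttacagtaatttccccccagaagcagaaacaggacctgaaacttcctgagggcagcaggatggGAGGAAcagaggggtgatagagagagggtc
C1qc: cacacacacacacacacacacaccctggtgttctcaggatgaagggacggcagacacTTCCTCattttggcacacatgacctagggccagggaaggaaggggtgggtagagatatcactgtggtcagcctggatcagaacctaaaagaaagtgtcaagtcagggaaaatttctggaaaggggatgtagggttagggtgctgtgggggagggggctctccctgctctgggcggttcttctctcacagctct
Each window held 1 match, which began 30 bases before the start in C1qb and 193 bases before it in C1qc, where it reads on the opposite strand. Of 32851 promoter windows of this length, 23.3% held the motif. An AP-1 core, TGANTCA, was found in neither window and in 6.75% of all windows. An NF-kB motif, GGG and CC with any 5 bases between them, had 2 matches in each of them and was present in 45.8% of all windows. In each window the 2 matches overlapped, so they do not mark separate sites. The PU.1 motif had 0 matches in the windows of C3, Cfp, C3ar1 and C5ar1, the other genes with an entry. A match describes letters and is no evidence of binding.

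No complement probe set differed between the genotypes past the threshold. All 13 passed the filter on low signals (a mean over 6 arrays of at least 8.51), and in limma 0 of 13 had an adjusted p under 0.05, against 0.00740% of the 27022 probe sets tested, which are 2 probe sets. Adjusted p lay between 0.358 and 0.949. At an unadjusted p under 0.05 there was 1 of 13, against 10.7% of all probe sets tested, and fits without an intensity trend in the variance also gave 0 of 13. Differences below are of log2(signal + 16), Dap12-deficient minus wild-type, and this scale understates differences of dim probe sets. Of the 13 probe sets, 7 had a difference above 0 and 6 below 0, with a median of 0.05 beside 0.025 over all probe sets tested. By array values, 2 of 13 lay wholly above the wild-type arrays, where 9.60% of all probe sets tested did so, and 0 of 13 wholly below, where 6.89% did so. Both of the 2 were receptor probe sets, and the 5 C1q probe sets all had lower means in Dap12-deficient cultures. In cultures that hold other cells too, fewer microglia and less RNA per microglial cell cannot be told apart.

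**Figure D1:**
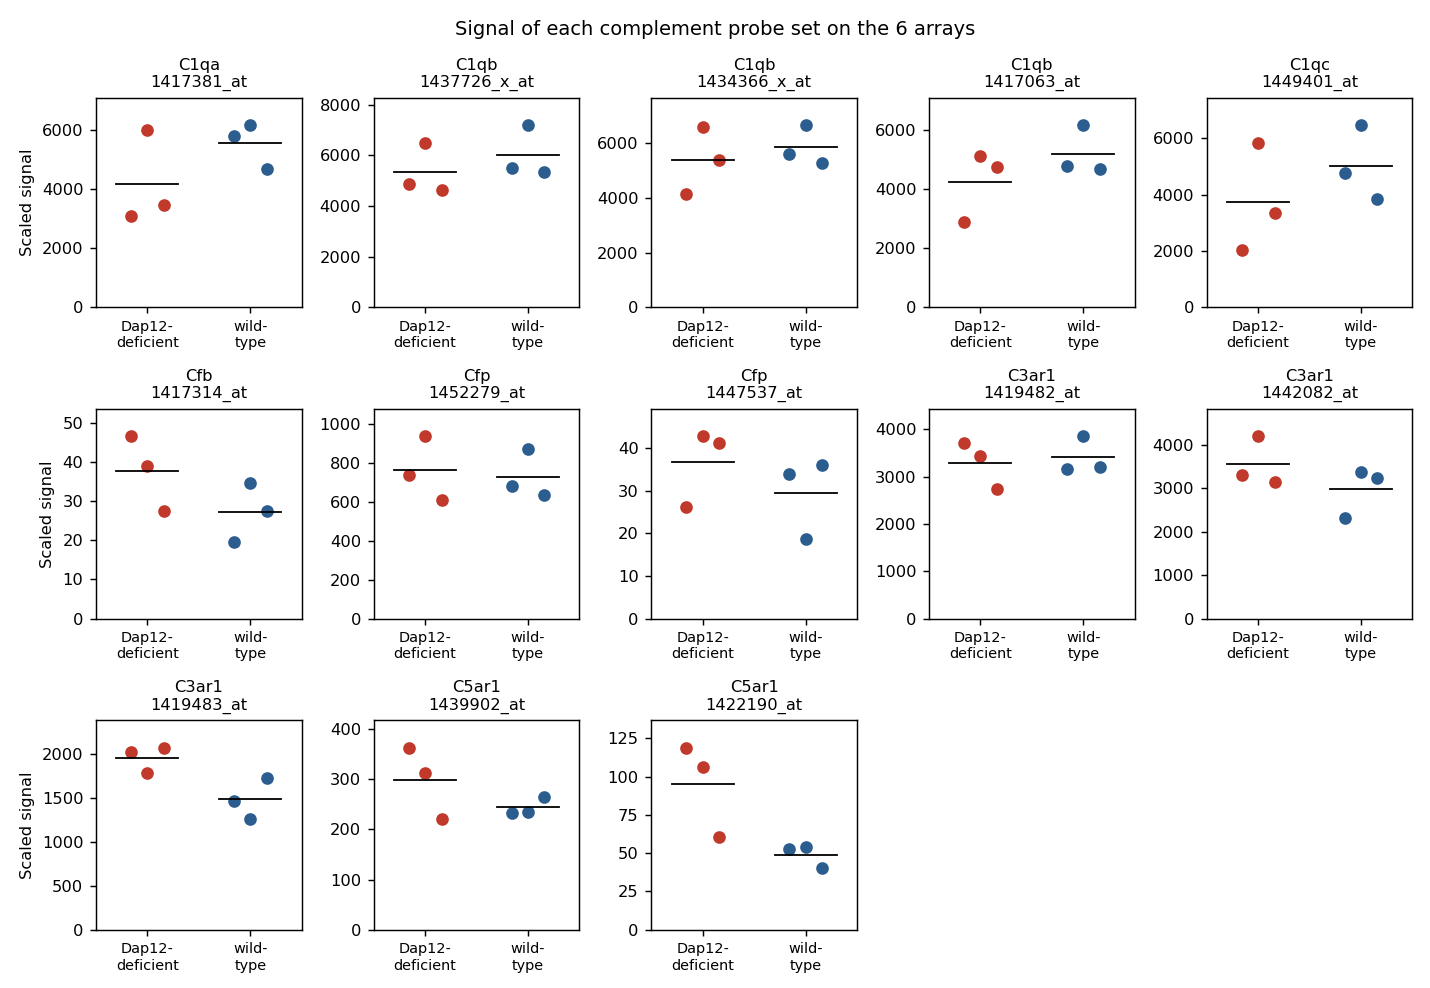
Scaled linear signal (vertical axes, each from 0) of the 13 complement probe sets on 3 Dap12-deficient arrays (red, left) and 3 wild-type arrays (blue, right). Points are arrays and horizontal lines are group means. Groups overlap in every panel except C3ar1 1419483_at and C5ar1 1422190_at, where the 3 Dap12-deficient arrays lie above the wild-type arrays.

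C1q is built from equal numbers of A, B and C chains, each with a collagen-like stalk and a globular head that binds targets. C1qa, the A chain, gave signals of 3083, 5989 and 3447 on Dap12-deficient arrays 1, 2 and 3, against 5795, 6149 and 4662 on wild-type arrays 1, 2 and 3. Dap12-deficient arrays 1 and 3 were below every wild-type array and array 2 was among them, so the groups overlapped. Means were 4173 ± 1584 in Dap12-deficient and 5535 ± 777 in wild-type cultures (SD, n = 3 each), a log2 difference of -0.46 (95% interval -1.01 to 0.09, limma adjusted p = 0.540). C1qc, the C chain, gave 2032, 5836 and 3366 in Dap12-deficient cultures, against 4767, 6467 and 3847 in wild-type cultures. Its spread within the Dap12-deficient group was the widest of any member, with array 1 lowest of all 6 and array 2 second highest. The log2 difference was -0.52 (95% interval -1.27 to 0.23, limma adjusted p = 0.611).

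C1qb, the B chain, was read by 3 probe sets, and all had a lower mean in Dap12-deficient cultures. The brightest, 1437726_x_at, gave 4859, 6472 and 4651 in Dap12-deficient cultures, against 5520, 7191 and 5358 in wild-type cultures. Probe set 1434366_x_at gave 4150, 6590 and 5392 in Dap12-deficient cultures, against 5612, 6643 and 5282 in wild-type cultures. Probe set 1417063_at gave 2892, 5123 and 4732 in Dap12-deficient cultures, against 4771, 6156 and 4670 in wild-type cultures. Dap12-deficient array 1 was the lowest of all 6 in the last 2 sets and second lowest in the first, and the groups overlapped in all 3. Log2 differences were -0.18, -0.14 and -0.32 in this order, with 95% intervals of -0.61 to 0.25, -0.58 to 0.30 and -0.83 to 0.19. Limma adjusted p was 0.765, 0.831 and 0.642. The suffix x marks sets whose probes can bind more than 1 transcript, and the set without it had the largest of these 3 differences.

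The C1q probe sets ordered the arrays nearly alike, whichever chain they read. In all 5, wild-type array 2 was highest, Dap12-deficient array 2 next and wild-type array 1 after it, and C1qa and C1qc gave the same order of all 6 arrays. Centred on its mean over the 6 arrays, the mean log2 signal of the 3 chains (brightest sets) was -0.60, 0.36 and -0.33 on Dap12-deficient arrays 1, 2 and 3, and 0.17, 0.47 and -0.06 on wild-type arrays 1, 2 and 3. The distance between the highest and lowest array was 1.07, while single C1q sets ranged from 0.63 to 1.66. The Dap12-deficient group thus held the lowest and the second highest array, and the differences depended on which of its arrays entered. Without Dap12-deficient array 1 the log2 differences were -0.27 for C1qa, -0.12 for C1qb and -0.15 for C1qc, and without Dap12-deficient array 2 they were -0.75, -0.33 and -0.905, with the smallest adjusted p at 0.144.

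**Figure D2:**
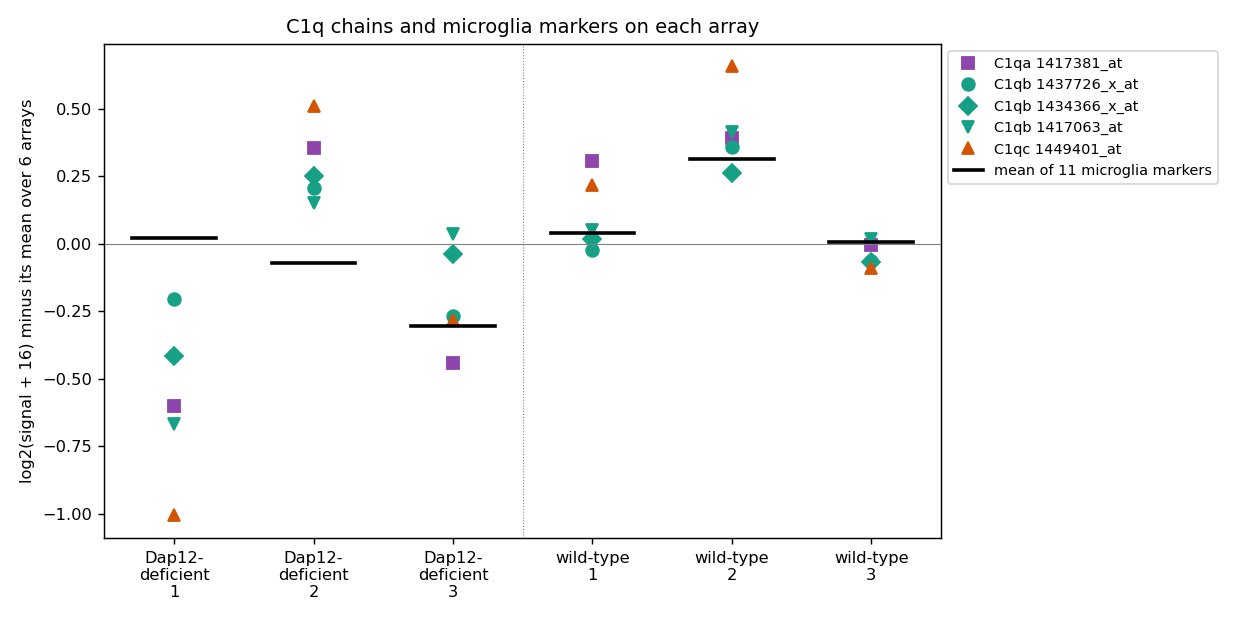
Log2(signal + 16) minus its mean over 6 arrays (vertical axis) for the 5 C1q probe sets (symbols) and the mean of 11 microglia markers (black bars) on each Dap12-deficient (left) and wild-type (right) array. All C1q symbols lie below 0 on Dap12-deficient array 1, where the marker mean is 0.02 with Cx3cr1 and -0.15 without it, and above 0 on Dap12-deficient array 2, where it is -0.07 with Cx3cr1 and -0.01 without it.

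Microglia markers differed among themselves on Dap12-deficient array 1, where C1q was low. Centred in the same way, the mean of the 11 markers was 0.02, -0.07 and -0.30 on Dap12-deficient arrays 1, 2 and 3, and 0.04, 0.31 and 0.01 on wild-type arrays 1, 2 and 3. The value of 0.02 rested on Cx3cr1, the fractalkine receptor, which gave 1571, 276 and 499 in Dap12-deficient cultures, against 357, 664 and 197 in wild-type cultures. Without Cx3cr1, a choice made after its values were seen, the other 10 markers averaged -0.15, -0.01 and -0.34 on the Dap12-deficient arrays, against 0.08, 0.30 and 0.12 on the wild-type arrays. Of the 11 markers, 7, 5 and 10 lay below their own mean on Dap12-deficient arrays 1, 2 and 3. On wild-type arrays 1, 2 and 3, 4, 0 and 6 did. Trem2 (322) and Sall1 (63.5) were lowest of all 6 arrays on Dap12-deficient array 1, where P2ry12 (473) and Csf1r (8252) were second highest. Of these 11 markers, 10 had lower and 1 a higher mean in Dap12-deficient cultures, with a median log2 difference of -0.29, and 0 passed. Oligodendrocyte markers, all 9 with lower means and a median of -1.35, were at 0.51, -1.04 and -1.65 on the Dap12-deficient arrays and at 1.01, 0.05 and 1.12 on the wild-type arrays, and 0 passed. Of the 12 astrocyte markers, 10 had higher and 2 lower means in Dap12-deficient cultures (median 0.40), and 0 passed. They stood at 0.16, -0.39 and 0.62 on the Dap12-deficient arrays, against -0.02, -0.33 and -0.04 on the wild-type arrays. The ratio of 3′ to 5′ control signal of Gapdh, a sign of RNA and amplification length, was 3.58, 3.09 and 2.52 on the Dap12-deficient arrays and 3.29, 3.39 and 3.21 on the wild-type arrays. That of beta-actin was 3.2, 2.4 and 1.81 on the Dap12-deficient arrays and 2.46, 3.38 and 3.94 on the wild-type arrays. Of 8 markers of border macrophages, which also make C1q, 4 had higher and 4 lower means, with summed signals of 7072 to 7365 in Dap12-deficient and 7241 to 8497 in wild-type cultures. The part of cell make-up or RNA length in the C1q values was not tested.

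Among 12868 other tested genes, each by its brightest tested probe set, the profile over the 6 arrays nearest to the C1q mean was that of Tlr5, the receptor of flagellin. Nearness was the root mean square difference of centred log2 values. It was 0.056 for Tlr5, 0.058 for Ilk, 0.059 for Tmem106a, and 0.068 for both Tonsl and Zbp1, a sensor of Z-form nucleic acids. The median over all these genes was 0.42. Ilk, which encodes integrin-linked kinase, gave 182, 349 and 201 in Dap12-deficient cultures, against 299, 393 and 279 in wild-type cultures. Tmem106a gave 199, 440 and 271 in Dap12-deficient cultures, against 360, 475 and 337 in wild-type cultures. Both were low on Dap12-deficient array 1 as C1q was, which follows from their choice by nearness. Tlr5 and Tonsl were dim, with means over the arrays of 12.6 and 11.98.

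Of the alternative pathway, Cfb was dim, and both genes had overlapping groups. Cfb, the factor B protease that carries the catalytic site of the alternative convertase, gave 46.6, 39.1 and 27.5 in Dap12-deficient cultures, against 19.6, 34.7 and 27.6 in wild-type cultures. Of the Dap12-deficient arrays, 2 lay above every wild-type array and the last was just below wild-type array 3. Its means were 37.7 ± 9.59 in Dap12-deficient and 27.3 ± 7.53 in wild-type cultures (SD, n = 3 each), a log2 difference of 0.31 (95% interval -0.17 to 0.79, limma adjusted p = 0.632).

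Cfp encodes properdin, the one known positive regulator of complement, made by myeloid cells. Its brighter set, 1452279_at, gave 739, 936 and 611 in Dap12-deficient cultures, against 683, 872 and 634 in wild-type cultures, so the wild-type range lay inside the Dap12-deficient range. The log2 difference was 0.05 (95% interval -0.43 to 0.53, limma adjusted p = 0.949). The dim set, 1447537_at, gave 26.1, 42.7 and 41.1 in Dap12-deficient cultures, against 33.9, 18.6 and 35.9 in wild-type cultures. Its difference was 0.22 (95% interval -0.29 to 0.72, limma adjusted p = 0.758), and it ordered the arrays otherwise than the bright set.

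The receptor of C3a, C3ar1, is a G protein-coupled receptor abundant on microglia, and its 3 probe sets did not give the same answer. The brightest, 1419482_at, gave 3710, 3439 and 2738 in Dap12-deficient cultures, against 3167, 3851 and 3195 in wild-type cultures, and the groups overlapped. Set 1442082_at gave 3319, 4199 and 3155 in Dap12-deficient cultures, against 2312, 3387 and 3246 in wild-type cultures, and again the groups overlapped. Set 1419483_at gave 2018, 1786 and 2074 in Dap12-deficient cultures, against 1467, 1256 and 1730 in wild-type cultures. Here every Dap12-deficient array was above every wild-type array, by a gap of 1786 against 1730 at the closest. Log2 differences were -0.05, 0.26 and 0.41 in this order, with 95% intervals of -0.46 to 0.35, -0.19 to 0.71 and -0.003 to 0.82. Limma adjusted p was 0.939, 0.668 and 0.473. The mean of all 3 sets gave 0.205 (adjusted p = 0.666), which turns the sign of the brightest set.

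C5ar1, the receptor of the chemoattractant C5a, had the largest difference among the members, in the dimmer of 2 probe sets. Set 1422190_at gave 119, 106 and 60.6 in Dap12-deficient cultures, against 52.6, 53.9 and 40.4 in wild-type cultures. The 3 Dap12-deficient arrays lay above the wild-type arrays, arrays 1 and 2 by a wide margin and array 3 by a small one. Means were 95.2 ± 30.8 in Dap12-deficient and 48.97 ± 7.45 in wild-type cultures (SD, n = 3 each), a 1.945-fold ratio of linear signals. The log2 difference was 0.74 (95% interval 0.20 to 1.28, unadjusted p = 0.0116), which failed the correction over all probe sets (limma adjusted p = 0.358). The brighter set, 1439902_at, gave 363, 312 and 220 in Dap12-deficient cultures, against 232, 235 and 265 in wild-type cultures. Its arrays 1 and 2 were again above every wild-type array, but array 3 was below all of them, and the difference was 0.25 (95% interval -0.23 to 0.73, limma adjusted p = 0.705). C5ar1 is on chromosome 7 with Tyrobp, with 409 protein-coding genes between them in the RefSeq table, and it is the one member on that chromosome.

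**Figure D3:**
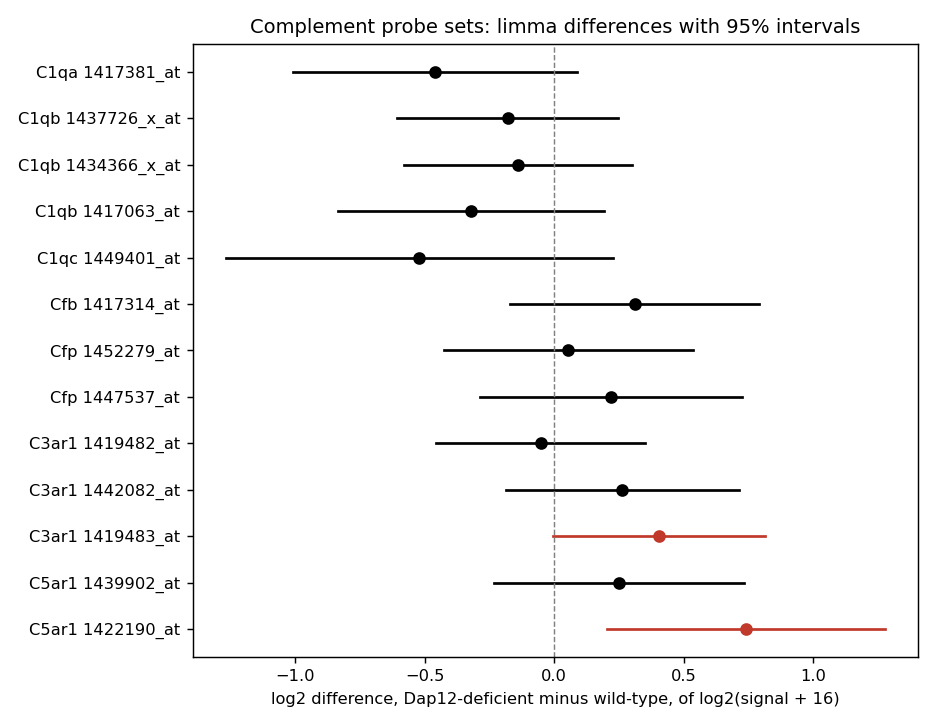
Log2 difference of signal (horizontal axis, Dap12-deficient minus wild-type, dots) with unadjusted 95% limma intervals (lines) for the 13 complement probe sets. Red marks the 2 sets whose arrays did not overlap between the groups. The 5 C1q sets lie left of 0, from -0.52 to -0.14, and the 5 receptor sets from -0.05 to 0.74.

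Bringing every array to a common median lowered the differences of all 13 probe sets, while quantile normalization moved some up and others down. With the common median, the median difference over all probe sets tested was -0.16, against 0.025 with the signals as deposited, so signs near 0 depend on it. Set against that median, the differences under this scaling were -0.56 for C1qa, -0.28 for C1qb, -0.62 for C1qc, 0.30 for Cfb, -0.04 for Cfp, -0.15 for C3ar1 and 0.17 for C5ar1 by their brightest sets, and 0.70 for the dimmer C5ar1 set. Without that adjustment Cfp was at -0.20 and the brightest C5ar1 set at 0.01 (0.008). All 5 C1q sets stayed below 0 with the signals as deposited, after quantile normalization and with a common median.

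The other genes of the complement system did not pass either. A list held 61 names of components, regulators and receptors, chosen for the pathway but with earlier results of these data known. Besides the members it gave 56 genes, of which 46 had a probe set under a single symbol and 25 were bright enough to test. Of these 25, 0 passed in limma (adjusted p from 0.269 to 0.973, and 6 at an unadjusted p under 0.05). By the brightest tested set, 11 were above 0 and 14 below 0, with a median of -0.13, beside -0.03 over all 12875 genes tested, of which 54.8% were below 0. Arrays did not overlap for 1 gene higher in Dap12-deficient cultures (4.0% of the 25, against 7.54% of all genes tested) and for 6 genes lower (24.0%, against 8.85%). Among them Cd55 passed the filter through its wild-type signals alone, with a mean of 7.15 in Dap12-deficient cultures, so the share of 24.0% is a description and supports nothing. Without the filter 26 of the 46 genes were above 0.

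Regulators that protect cells from complement lay on either side of 0. Cd55, decay-accelerating factor, which breaks up convertases on cell surfaces, gave 6.55, 9.63 and 5.27 in Dap12-deficient cultures, against 21.8, 36.4 and 35.2 in wild-type cultures. The groups were far apart at a low signal, with a log2 difference of -1.01 (95% interval -1.46 to -0.57, limma adjusted p = 0.269). A second tested set of Cd55 gave -0.10, so the sets of this gene disagreed. Cr1l, the rodent regulator Crry, gave 499, 477 and 425 in Dap12-deficient cultures, against 571, 537 and 533 in wild-type cultures. By this brightest set it was slightly lower on every Dap12-deficient array (-0.22, adjusted p = 0.675), while a second tested set gave 0.09 with overlap. Cd46, whose mouse form is known mainly from the acrosome of sperm, gave 29.7, 18.7 and 25.7 in Dap12-deficient cultures, against 11.9, 12.1 and 12.8 in wild-type cultures. By brightest tested sets it was the one gene of the list with higher signals on every Dap12-deficient array (0.52, adjusted p = 0.376). The signal of its only probe set was dim, near the array medians of 11.9 to 14.0 in wild-type cultures.

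The rest of the 6 genes with lower signals on every Dap12-deficient array, named for that lack of overlap, were Itgb2, Vsig4, C1qbp and Masp1. Itgb2, the beta chain shared by complement receptors CR3 and CR4, gave 1613, 2003 and 1342 in Dap12-deficient cultures, against 2063, 2317 and 2187 in wild-type cultures. Its highest Dap12-deficient array was just under the lowest wild-type array (-0.42, adjusted p = 0.475). Vsig4, a C3b receptor of tissue macrophages, gave 2.1, 13.7 and 17.0 in Dap12-deficient cultures, against 26.4, 29.0 and 35.7 in wild-type cultures. Its signal was dim in both groups (-0.83, adjusted p = 0.335). C1qbp, a mitochondrial protein that can bind C1q, gave 2846, 3252 and 2868 in Dap12-deficient cultures, against 3387, 3884 and 3501 in wild-type cultures (-0.26, adjusted p = 0.593). A second tested set of C1qbp gave -0.50 with overlap (limma adjusted p = 0.538). The microglia marker mean was also lower on Dap12-deficient array 3 than on any other array, and its part in these values was not tested. Masp1, a protease of the lectin pathway, gave 14.1, 21.1 and 14.6 in Dap12-deficient cultures, against 31.3, 40.9 and 25.7 in wild-type cultures by its brightest set (-0.57, adjusted p = 0.370).

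**Figure D4:**
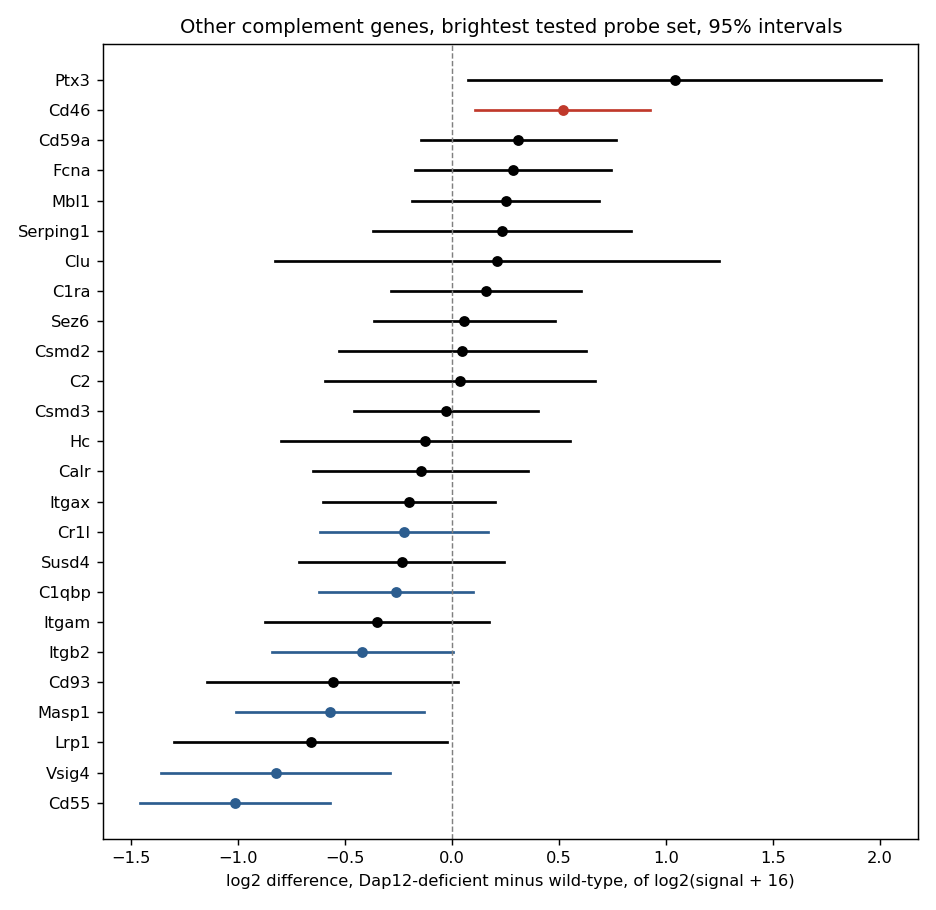
Log2 difference of signal (horizontal axis, Dap12-deficient minus wild-type, dots) with unadjusted 95% limma intervals (lines) for the 25 tested genes of the wider complement list, each by its brightest tested probe set. Arrays did not overlap for Cd46, shown in red as higher, and for 6 genes shown in blue as lower, from Cr1l at -0.22 to Cd55 at -1.01.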

How the data were processed

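Per the labels' protocols, RNA of the 6 primary microglial cultures was purified by Trizol followed by RNeasy, amplified in repeated cycles and biotin-labelled. Per the submitters' processing notes the arrays were read out with GCOS, whose version and signal algorithm no source used here gives. The deposited intensity values were linear and positive, and their mean after trimming 2% of probe sets at either end was 100.0 on every array, a scaling present in the values as deposited by the authors. Precision is limited by having 3 arrays in each group.

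Groups came from the labels, and replicate numbers follow the order of deposit and pair nothing. No 2 arrays shared a value in any probe set. Of 45101 probe sets, 64 controls were left out, and 34945 had 1 gene symbol, 932 several and 9160 none. Signals were used as log2(signal + 16), and the 27022 probe sets with a mean at or above the 40th percentile were fitted with limma 3.58.1 in R 4.3.3 (eBayes with an intensity trend, two-sided, no covariate). Benjamini-Hochberg adjusted p under 0.05 was the threshold. The members and lists were chosen with earlier results of these data known. All members were named, as were the genes of the wider list that passed or, up to 8, had the largest difference without overlap, and the 5 genes nearest in profile to the C1q mean. Likeness to C3 was planned and could not be computed here. On simulated data the fit recovered 31.2% of log2 changes of 1 and 97.1% of changes of 3. Smaller changes than these were not simulated. As alternatives, the scaling was changed to a common median or to quantile normalization, the pseudocount to 64 or 1, and the filter to the 60th percentile or none. The trend was dropped, a covariate marked titles that hold a joined number, probe sets of a gene were averaged, and each array was left out. Python 3.11.15 and matplotlib 3.10.9 made the plots.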

Additional observations from a re-analysis of the deposited data

How the results depend on the processing

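Of 189 member results under an alternative setting, 0 passed the threshold and 182 kept their direction. These results were of single probe sets and, for each gene, of the mean of all its sets. The lowest limma adjusted p was 0.144, for C1qa without Dap12-deficient replicate 2. The sign turned for Cfp with a common median (-0.20) and when single arrays were left out (range -0.10 to 0.20), for the brightest C3ar1 set with the mean of all sets (0.205) and when single arrays were left out (-0.14 to 0.075), and for C1qb set 1434366_x_at without Dap12-deficient replicate 1 (range -0.30 to 0.035). The cause was not tested beyond the change of scaling, sets or arrays itself. The count of probe sets past the threshold over the whole table was 2, but 5 with a common median and 2 to 172 when single arrays were left out, with 172 without Dap12-deficient replicate 2 and 15 without Dap12-deficient replicate 1. In the wider list, genes above 0 numbered 11, but 7 with a common median, 26 without the filter and 6 with the filter at the 60th percentile, where 8 rather than 14 were below 0, since the filter sets how many genes are counted. No paired analysis was possible because the replicate numbers only follow the order of deposit.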

Other observations

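Probe sets of 1 gene pointed in opposite directions for Masp1 and Susd4, as was seen after their values were known. Tested sets of C2, Cd59a, Cr1l and Sez6 did so too, with log2 differences from -0.22 to 0.31. Of Masp1, the 2 sets of the kind shared between transcripts, 1438602_s_at and 1425985_s_at, had log2 differences of -0.57 and -0.625, with all Dap12-deficient arrays below the wild-type arrays, while 1419677_at (mean 19.4 ± 2.83 in Dap12-deficient and 9.72 ± 4.29 in wild-type cultures, SD, n = 3 each) had 0.47, with all of them above, and 1455346_at had 0.38 with overlap. Adjusted p of these 4 sets lay between 0.365 and 0.629, and which transcripts they read was not analysed here. Of Susd4, a membrane protein that can inhibit complement, the brightest set 1460593_at had -0.24 with overlap (limma adjusted p = 0.723). Its other set, 1424221_at, averaged 32.2 ± 8 in Dap12-deficient and 16.9 ± 4.36 in wild-type cultures (SD, n = 3 each), with all Dap12-deficient arrays above (0.55, adjusted p = 0.393).

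A pair of further genes of the wider list was chosen after its values were seen. Lrp1, a scavenger receptor that can bind C1q, had a second set, 1442849_at, at 25.7, 33.9 and 31.7 in Dap12-deficient cultures, against 72.7, 61.5 and 87.3 in wild-type cultures (log2 difference -0.95, limma adjusted p = 0.279). Its brightest set had -0.66 with overlap (adjusted p = 0.457). Ptx3, a pentraxin that can bind C1q, gave 90.7, 8.37 and 62.0 in Dap12-deficient cultures, against 12.4, 14.4 and 10.9 in wild-type cultures. It was higher on Dap12-deficient arrays 1 and 3 than on any wild-type array and lowest of all 6 on Dap12-deficient array 2 (log2 difference 1.04, adjusted p = 0.444). Within that group C1q was low on arrays 1 and 3 and high on array 2. Among the wild-type arrays, however, Ptx3 and C1q were both highest on array 2 and lowest on array 3. The other Ptx3 set, under the filter, had a log2 difference of -0.004. A relation of Ptx3 to C1q was not tested.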
